A study of Mus musculus with 17 samples.

Results

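Heat shock proteins were followed in 17 single mouse 2-cell embryos, through every row (probe set) of the array table that the platform annotation assigns to Hspa1a, Hspa1b, Hspa8, Hsf1, Hspb1, Hsp90aa1, Hsp90ab1, Hspd1, Hsph1 or Dnajb1. Of these 10 genes, 8 had a row. They held 13 rows with 1 gene symbol, out of 21780 such rows in the table, and 3 rows shared between genes, which are given apart. Hsf1 and Hsp90ab1 had no row annotated here and were not analysed. The study asked whether sperm of males with disturbed poly(ADP-ribose) metabolism, which keeps an abnormal complement of histones, leads to altered transcript levels in the next generation.

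The 10 PJ34 embryos came from 3 wild-type sires (MTM11 with 4 embryos, MTM13 with 4 and MTM14 with 2) that had received daily injections of PJ34, which blocks PARP1 and PARP2, the enzymes that make poly(ADP-ribose), for 6 weeks. The 7 control embryos came from 3 wild-type sires (1 embryo of sire A, 3 of sire B and 3 of sire D), which the treatment protocol describes as saline injected and another label as untreated. All animals were of strain 129SVE, embryos were obtained by natural mating with untreated wild-type females, and only the fathers were given the drug. Embryos are named by sire and number. Each embryo was amplified and hybridised to 1 array, and values are log2 RMA intensities (background-corrected and quantile-normalized signals, in which 1 unit is a 2-fold difference). Array medians lay between 6.12 and 6.23. Embryos with the same father are not independent of that father, so p-values over embryos measure the spread between these embryos. Intensities of different probes are not comparable, so levels are compared between embryos within a row.

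Markers of the labelled stage were averaged per embryo, to compare embryos only. All 15 maternal markers had a row, which is a property of the array and not of the embryos. Their mean per embryo ran from 9.38 to 9.72 in PJ34 and from 9.44 to 9.88 in control embryos. For the 9 of 16 genome activation markers with a row, it ran from 7.43 to 8.99 in PJ34 and from 8.07 to 8.87 in control embryos. Markers of cumulus cells (12 of 13 with a row) ran from 5.26 to 5.54 in PJ34 and from 5.35 to 5.51 in control embryos, and markers of oviduct and blood (11 of 14) from 5.90 to 6.24 in PJ34 and from 5.89 to 6.14 in control embryos. Single rows departed from these means. The genome activation marker Usp17la stood at 4.25 in PJ34 and 4.14 in control embryos, and the oviduct marker Epcam at 8.01 in PJ34 and 7.71 in control embryos. The part of the markers in the results below was not tested.

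Heat shock proteins are chaperones that bind unfolded proteins. Hsp70 proteins work with J proteins such as Dnajb1, which stimulate their ATPase, and with nucleotide exchange factors such as Hsph1, which reset the cycle. Hsp90 proteins complete the folding of kinases and receptors, Hspd1 (Hsp60) folds proteins inside mitochondria, and the small protein Hspb1 holds unfolded chains. The transcription factor Hsf1 drives the stress-inducible members through heat shock elements, which are alternating copies of GAA and TTC. In the mouse embryo the inducible Hsp70 genes are known to be among the earliest transcribed at genome activation, without heat stress.

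No heat shock row differed between PJ34 and control embryos after adjustment. In the limma fit over all rows with 1 symbol, 0 of 13 rows had an adjusted p below 0.1, the threshold of the study (0% of all 21780 rows), and the lowest adjusted p of a heat shock row was 0.814. At an unadjusted p below 0.05, 2 of 13 rows were lower in PJ34 embryos, against 3.93% of all rows, and 0 of 13 were higher, against 1.96% of all rows (5.89% in either direction). Both rows belong to Hspa8. The median difference, PJ34 minus control, was -0.03 over the 13 rows and -0.02 over all rows, with 8 of 13 negative differences and 56.35% of all rows negative. In simulated data of this size, the fit recovered 83% of rows with a 2-fold change and 96% of those with a 4-fold change. There 100 rows of each size were changed together, in independent noise without sires. More changed rows make the adjustment more lenient, so these shares do not give the chance of finding a lone row.

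The inducible Hsp70 genes Hspa1a and Hspa1b lie close together on chromosome 17 and code for nearly the same protein. Their promoters are shown because 1 row of the array is assigned to both genes and a second to Hspa1a alone. The RefSeq windows (GRCm38.p6, from 250 bases before to 50 bases after the start, minus strand) are chr17:34972107-34972406 for Hspa1a and chr17:34959189-34959488 for Hspa1b, read 5′ to 3′ with a pair of heat shock units (GAANNTTC, the same on both strands) in capitals. The windows differed at 4 of 300 bases.
Hspa1a: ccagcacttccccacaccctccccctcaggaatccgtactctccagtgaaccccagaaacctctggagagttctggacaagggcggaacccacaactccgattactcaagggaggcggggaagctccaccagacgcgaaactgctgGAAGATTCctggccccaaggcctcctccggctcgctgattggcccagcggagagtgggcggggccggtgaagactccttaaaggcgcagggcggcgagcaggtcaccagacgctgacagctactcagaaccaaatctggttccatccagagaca
Hspa1b: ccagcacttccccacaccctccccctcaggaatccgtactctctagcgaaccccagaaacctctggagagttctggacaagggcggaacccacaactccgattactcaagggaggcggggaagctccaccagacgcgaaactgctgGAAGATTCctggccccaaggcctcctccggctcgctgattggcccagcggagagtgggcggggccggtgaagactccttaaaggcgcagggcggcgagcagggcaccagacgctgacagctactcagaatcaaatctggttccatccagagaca
Both windows held 1 such pair, at the same distance from the start. Of all 32851 promoter windows in the table, 7.86% held GAANNTTC. A match describes the letters only.

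The row of Hspa1a alone averaged 7.69 ± 0.34 over the 10 PJ34 embryos (log2, SD), against 7.74 ± 0.31 over the 7 controls. The lowest, median and highest values were 7.09 (MTM14-2), 7.76 and 8.21 (MTM13-3) in PJ34 embryos, and 7.31 (A-2), 7.73 and 8.31 (B-3) in control embryos. The groups overlapped almost throughout, with 8 of 10 PJ34 embryos inside the control range. The difference was -0.05 (95% interval -0.38 to 0.28, limma, adjusted p = 0.976), and its sign changed when sire B, MTM11 or MTM14 was left out. The mean of sire MTM13 was 7.95, against 7.57 for MTM11 and 7.43 for MTM14, and the F test over the 3 PJ34 sires gave an adjusted p of 1.00 (unadjusted p = 0.0975).

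The row shared by Hspa1a and Hspa1b, the only row for Hspa1b, showed 1 embryo far from the others. Embryo MTM13-1 had a log2 level of 9.03, while the next highest PJ34 embryo, MTM13-2, stood at 7.86, the PJ34 median was 7.45 and the lowest PJ34 embryo, MTM11-1, stood at 7.09. The control embryos lay between 7.22 (A-2) and 7.91 (B-3), with a median of 7.41. Against the 7 controls, MTM13-1 was higher by 1.54 log2 units in the fit over all rows of the table (limma, adjusted p = 0.0207), and by the same 1.54 with an adjusted p of 0.0063 when the residual spread came from all embryos within groups. In the first of these fits, with the spread from the controls alone, 0.85% of row tests were called over the 10 PJ34 embryos. When single control embryos were compared with the remaining 6, 0.543% were called. The share with the spread from all embryos within groups was not computed. In the other 9 PJ34 embryos and in the 7 control embryos this row was not called. MTM13-1 also had the most calls of any embryo over the rows with 1 symbol (200 rows, or 0.918%, against 63 to 189 in the other PJ34 embryos and 63 to 106 in the controls), and its mean over the maternal markers (9.72) and over the genome activation markers (8.99) was the highest among PJ34 embryos. Their part in this value was not tested. In the row of Hspa1a alone MTM13-1 stood at 7.91, inside the control range, and the rows correlated weakly over the embryos (Pearson r = 0.36 on group-centred values over 17 embryos). How the platform's probes divide between these near-identical genes is not given in the sources used here, so the row cannot be assigned to 1 of them. As a group, PJ34 embryos averaged 7.62 ± 0.55 and control embryos 7.49 ± 0.24, a difference of 0.13 (adjusted p = 0.948) that turned to -0.02 without MTM13-1.

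**Figure D1:**
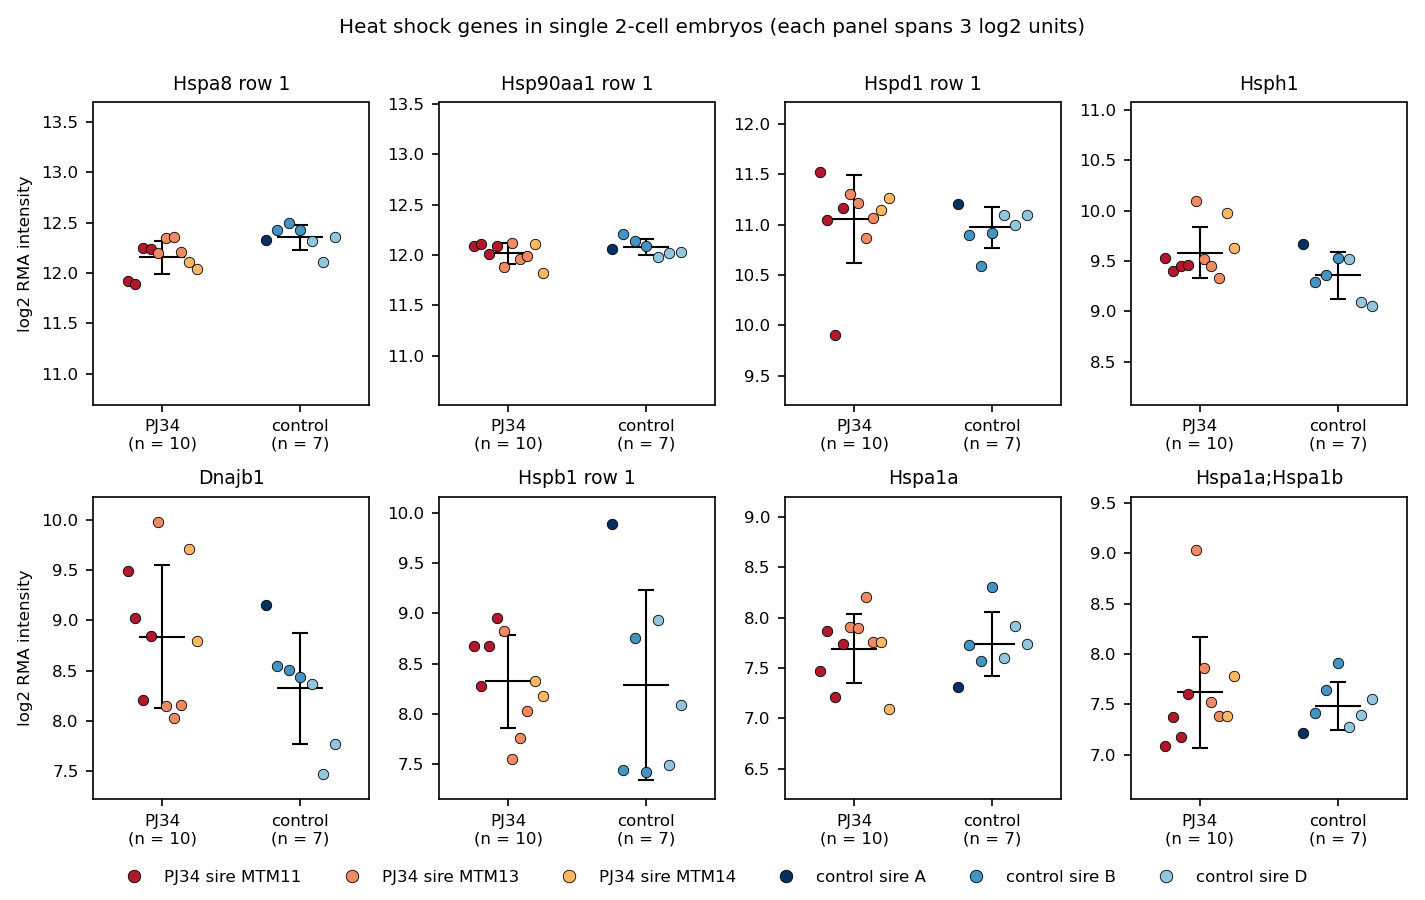
Log2 RMA intensity (vertical axis, 3 log2 units in every panel) of 8 heat shock rows in PJ34 embryos (left, n = 10) and control embryos (right, n = 7). Points are single embryos coloured by sire, bars the mean and SD; MTM13-1 stands alone at 9.03 in the shared Hspa1a;Hspa1b row, and Hspb1 spreads from 7.42 to 9.89 among the controls.

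Hspa8, the constitutive Hsp70 of most cells, gave the smallest p of the family. In its row 1, log2 levels averaged 12.15 ± 0.16 (n = 10) in PJ34 and 12.35 ± 0.13 (n = 7) in control embryos. The lowest, median and highest values were 11.89 (MTM11-2), 12.20 and 12.36 (MTM13-3) in PJ34 embryos, and 12.11 (D-2), 12.36 and 12.50 (B-2) in control embryos. The ranges overlapped, but 9 of 10 PJ34 embryos lay below the control mean and 3 lay below every control. The shares of all rows with such counts were not computed. The difference of -0.20 (95% interval -0.36 to -0.04) had an unadjusted p of 0.0165 and did not pass the adjustment (limma, adjusted p = 0.843).

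Row 2 of Hspa8 averaged 11.97 ± 0.17 in PJ34 and 12.23 ± 0.14 in control embryos. The PJ34 values ran from 11.70 (MTM11-2) over a median of 12.02 to 12.21 (MTM11-3), and the control values from 11.96 (D-2) over 12.28 to 12.36 (B-2). All 10 PJ34 embryos were below the control mean, which held for 2.54% of all rows and for 1 of 13 heat shock rows. The difference was -0.25 (95% interval -0.42 to -0.08, unadjusted p = 0.00575, adjusted p = 0.814), 1.19-fold lower in PJ34 embryos. Row 3 averaged 10.39 ± 0.21 in PJ34 and 10.56 ± 0.24 in control embryos, a difference of -0.17 (95% interval -0.40 to 0.05, adjusted p = 0.882). Over the 17 embryos the 3 rows moved together, with r from 0.86 to 0.96 on group-centred values, so they are not independent measurements.

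By sire, row 2 of Hspa8 averaged 11.91 for MTM11, 12.08 for MTM13 and 11.88 for MTM14, and 12.16 for A, 12.34 for B and 12.14 for D. The PJ34 sire means were all below the control sire means in this row. That was so in 1 of 13 heat shock rows and in 5.84% of all rows. The opposite order, all PJ34 sire means above all control sire means, was found in 0 of 13 heat shock rows and in 4.38% of all rows. In the fit with 4 groups, MTM11 embryos differed from controls by -0.31 (adjusted p = 0.851), MTM13 embryos by -0.15 (adjusted p = 0.954) and MTM14 embryos by -0.34 (adjusted p = 0.785). The sign was negative for all 3 Hspa8 rows under all 30 alternatives tried, and none of these passed the threshold. Several alternatives could not change the sign, because they alter only the spread or the adjustment, or repeat another fit. The 3 rows also moved together, so the constant sign is not independent support. Without sire B the differences were smaller, at -0.13 for row 1 and -0.02 for row 3.

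Another pair of rows is assigned to Hspa8 together with Snord14c and Snord14d, small nucleolar RNAs encoded in Hspa8 introns that guide RNA modification. They did not follow the Hspa8 messenger rows (r = 0.02 over 17 embryos between the first of each kind). The first of them varied from 4.62 (MTM13-3) over a median of 5.41 to 10.56 (MTM13-1) in PJ34 embryos, and from 4.25 (D-3) over 5.13 to 8.82 (B-2) in control embryos. The SDs were 2.20 in PJ34 and 1.78 in control embryos, and the difference of 0.51 had an interval from -1.51 to 2.52. Leaving out 1 embryo moved it to as little as 0.065 (without MTM13-1) and as much as 0.96 (without B-2). High values occurred in both groups (MTM13-1, MTM14-2, MTM11-1 and MTM13-2 at 7.58 or more in PJ34, B-2 and B-3 at 7.88 or more in control embryos). Both shared rows gave nearly the same values, with an r of 1.00.

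The cytosolic Hsp90 gene Hsp90aa1 was even between embryos. Its row 1 ran from 11.82 (MTM14-2) over a median of 12.05 to 12.12 (MTM13-2) in PJ34 embryos, and from 11.98 (D-1) over 12.06 to 12.21 (B-1) in control embryos. The means were 12.02 ± 0.10 in PJ34 and 12.08 ± 0.08 in control embryos, a difference of -0.06 (95% interval -0.17 to 0.05, adjusted p = 0.920). The differences of rows 2 and 3 were -0.03 each. Without sire B they were 0.029 and 0.031, and that of row 1 was -0.0028. Of the 513 rows within 0.5 log2 units of the level of row 2, 4.48% had a smaller within-group SD than its 0.085. The same share was 13.99% for row 1 and 18.42% for row 3. It was also low for Hsph1 (7.77%), and ran from 13.68% (Hspa8 row 3) to 85.07% (Hspd1 row 2) in the remaining heat shock rows. The lowest PJ34 embryo in all 3 Hsp90aa1 rows was MTM14-2, and it was below every control in each. The 3 rows correlated with r from 0.71 to 0.95.

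Hspd1, the mitochondrial Hsp60, was uneven in single embryos. Row 1 ran from 9.91 (MTM11-3) over a median of 11.16 to 11.52 (MTM11-1) in PJ34 embryos, and from 10.59 (B-2) over 11.00 to 11.21 (A-2) in control embryos. All PJ34 embryos other than MTM11-3 were at 10.87 or above, so 1 embryo accounts for the low end. The group difference was 0.08 (95% interval -0.28 to 0.44, adjusted p = 0.965), 0.21 without MTM11-3 and 0.015 without B-2. Row 2 also had its lowest PJ34 value in MTM11-3, at 8.94, over a median of 10.27 and a highest value of 11.05 (MTM14-2), while controls ran from 9.38 (B-3) over 10.69 to 10.97 (D-3). The difference of row 2 was -0.26 (95% interval -0.86 to 0.34, adjusted p = 0.926), opposite in sign to row 1. It was -0.12 without MTM11-3 and -0.45 without B-3. Control B-3, low in row 2, stood at 10.92 in row 1. Hspe1, the Hsp10 lid of the same chaperonin, averaged 10.59 ± 0.62 in PJ34 and 10.89 ± 0.33 in control embryos in its row with the smaller p (adjusted p = 0.911).

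The J protein Dnajb1 had the largest positive difference among the 13 rows, but a wide interval. Its values ran from 8.03 (MTM13-3) over a median of 8.82 to 9.98 (MTM13-1) in PJ34 embryos, and from 7.47 (D-2) over 8.44 to 9.15 (A-2) in control embryos. Above every control were MTM13-1, MTM14-1 (9.71) and MTM11-1 (9.49), each of another PJ34 sire, while the other 7 lay inside the control range. How many of all rows had such a count was not computed. The means were 8.84 ± 0.71 in PJ34 and 8.32 ± 0.55 in control embryos, a difference of 0.52 (95% interval -0.12 to 1.16, limma, adjusted p = 0.874). By sire, PJ34 means were 8.89 for MTM11, 8.58 for MTM13 and 9.25 for MTM14, and control means were 9.15 for A, 8.50 for B and 7.87 for D. Without sire D the difference was 0.18.

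Hsph1 (Hsp110) ran from 9.33 (MTM13-4) over a median of 9.49 to 10.10 (MTM13-1) in PJ34 embryos, and from 9.05 (D-3) over 9.36 to 9.67 (A-2) in control embryos. MTM13-1 and MTM14-1 (9.98), high for Dnajb1, were also the PJ34 embryos above every control here. The means were 9.59 ± 0.25 in PJ34 and 9.36 ± 0.23 in control embryos, a difference of 0.23 (95% interval -0.02 to 0.47, adjusted p = 0.863). Above the control mean lay 9 of 10 PJ34 embryos. The shares of all rows with such counts were not computed. MTM14 embryos differed from controls by 0.44 (unadjusted p = 0.0311, adjusted p = 0.842), from 2 embryos. Without sire D the group difference was 0.12.

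The small heat shock protein Hspb1 had similar means and unequal SDs in the groups. Row 1 averaged 8.32 ± 0.46 in PJ34 and 8.29 ± 0.94 in control embryos, and row 2 averaged 8.32 ± 0.44 in PJ34 and 8.29 ± 0.95 in control embryos. In row 1 the PJ34 values ran from 7.55 (MTM13-2) over a median of 8.31 to 8.96 (MTM11-4). The control embryos were B-3 at 7.42, B-1 at 7.44 and D-2 at 7.49 on the low side, D-3 at 8.09, B-2 at 8.75 and D-1 at 8.93 above them, and A-2 at 9.89. Sires B and D each had embryos among the low and the high controls, and all 10 PJ34 embryos lay inside the control range. Row 2 gave the same picture, with r = 0.98 between the rows. The spread comparison, a limma fit on absolute deviations from the group mean, gave an unadjusted p of 0.0171 for row 1 and 0.00743 for row 2 and did not pass the adjustment (adjusted p = 0.483 and 0.447). Of 13 heat shock rows, 0 passed it, and 0.0275% of all rows did. In simulated data this test recovered 0.5% of rows with an SD ratio of 6 after adjustment and 91% at an unadjusted p below 0.05, so a count of 0 says little. Without A-2 the control SD of row 1 was 0.69 and the unadjusted p was 0.108.

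**Figure D2:**
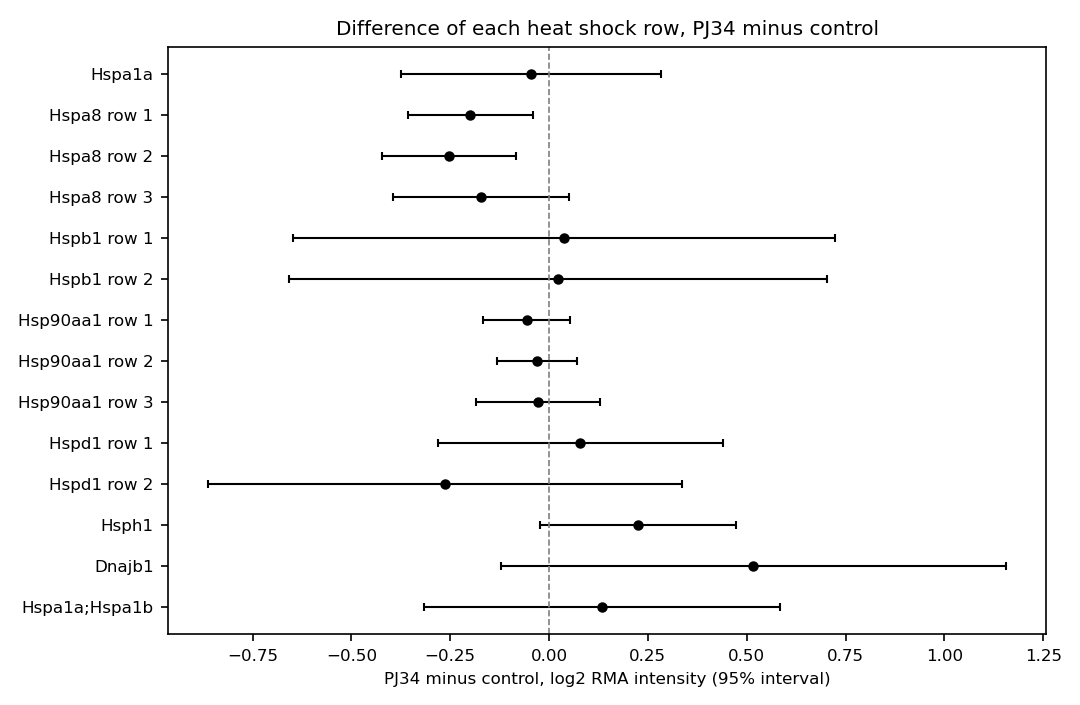
Difference in log2 RMA intensity, PJ34 minus control (horizontal axis), for the 13 heat shock rows and the shared Hspa1a;Hspa1b row; points are limma estimates and bars 95% intervals. The intervals of Hspa8 rows 1 and 2 lie below 0, those of Dnajb1 (-0.12 to 1.16) and all other rows include 0.

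Neither families nor single embryos gave a call in the 13 rows. Against controls, 0 of 13 rows passed for sire MTM11 (0.00459% of all rows), for sire MTM13 (0%) and for sire MTM14 (0.0551%), and 0 of 13 passed the F test between the PJ34 sires (0.0138%). At an unadjusted p below 0.05 Hspa8 rows 1 and 2 were lower in MTM11 and in MTM14 embryos, and Hsph1 was higher in MTM14 embryos. The share of all rows at that level was not computed for single sires, so these rows cannot be set against it. Hspa8 rows 1 and 2 moved together (r = 0.96) and are not independent, and MTM14 had 2 embryos. When each PJ34 embryo was set against the 7 controls, 0 of 13 rows were called in any of 10 embryos, where 0.581% of all row tests were. For single controls against the remaining 6, 0 of 13 were called, where 0.397% of all row tests were. The smallest p of a PJ34 embryo was that of Hspd1 row 1 in MTM11-3 (difference -1.06, unadjusted p = 0.000952, adjusted p = 0.139), and the smallest of a control was that of Hspd1 row 2 in B-3 (difference -1.31, unadjusted p = 0.000884, adjusted p = 0.209). With the residual spread taken from all other embryos within groups, Hspd1 row 1 in MTM11-3 passed at the same difference of -1.06. The share of all row tests called with that spread was not computed.

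**Figure D3:**
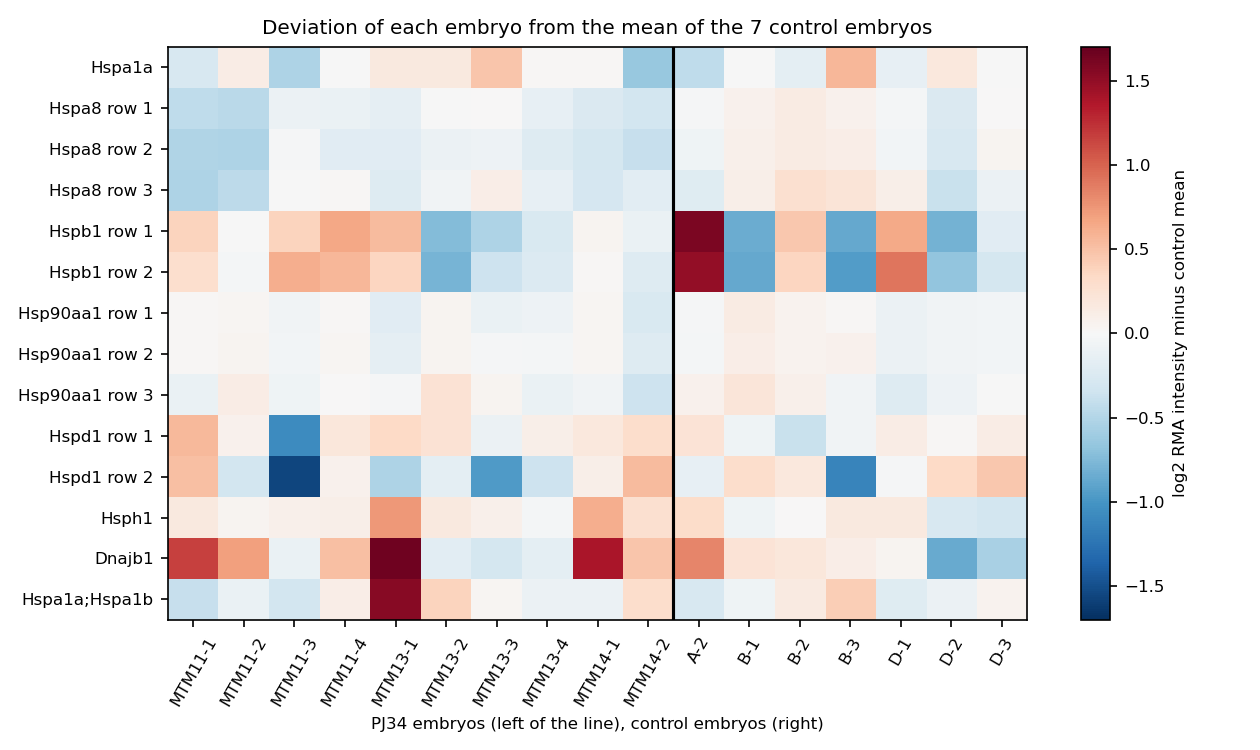
Log2 RMA intensity minus the mean of the 7 control embryos (colour scale) for 14 rows (down) in each embryo (across; PJ34 left of the line, control right). Among the dark red cells are MTM13-1 in the shared Hspa1a;Hspa1b row, MTM13-1 and MTM14-1 in Dnajb1, and control A-2 in Hspb1. Among the dark blue cells are MTM11-3 in both Hspd1 rows and control B-3 in Hspd1 row 2.

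The heat shock genes did not vary as 1 block across embryos. With 1 row for each of 7 genes and group means removed, 21 pairs were correlated over 17 embryos (permutation within groups, two-sided, Benjamini-Hochberg over the 21 pairs). The median r was 0.09, 12 of 21 were positive, and 3 had an adjusted p below 0.1. Dnajb1 and Hsph1 were the closest pair, with Pearson r = 0.81 (p = 0.00013, adjusted p = 0.0027) and Spearman rho = 0.73 (adjusted p = 0.032). The relation held within each group (r = 0.78 in PJ34 and 0.87 in control embryos). Without the 2 embryos farthest from the Hsph1 median, MTM13-1 and MTM14-1, r was 0.68, and leaving out each embryo in turn gave r from 0.74 to 0.86 with an adjusted p below 0.1 in all 17 cases. On values centred on each sire's mean r was 0.84 over 16 embryos, where permutation within sires gave an unadjusted p of 0.0186 and an adjusted p of 0.222. As a description chosen after its value was seen, Hsph1 ranked 1 of 4158 other rows with a mean level of at least 8 by r with Dnajb1, and Dnajb1 ranked 2 by r with Hsph1.

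The other 2 pairs lay just under the threshold. Hspb1 and Dnajb1 had r = 0.55 (adjusted p = 0.0993) and Spearman rho = 0.49 (adjusted p = 0.272), and Hspa1a and Hspb1 had r = -0.58 (adjusted p = 0.0993) and rho = -0.50 (adjusted p = 0.272). Left out in turn, the embryos gave adjusted p-values up to 0.488 for both, and without A-2 r was 0.45 for Hspb1 with Dnajb1 and -0.48 for Hspb1 with Hspa1a. For Hspa1a with Hspb1, r was -0.36 within PJ34 and -0.83 within control embryos. Without the 2 embryos farthest from the Hspb1 median, A-2 and B-3, the r of Hspb1 with Dnajb1 was 0.52, and without those farthest from the Hspa1a median, MTM14-2 and MTM11-3, the r of Hspa1a with Hspb1 was -0.72. The lowest adjusted p of Hspa8 with another gene was 0.626, its r lying between -0.38 with Hspd1 and 0.24 with Hspa1a. The shared Hspa1a;Hspa1b row had its highest r, 0.49, with Hsph1 (adjusted over 7 pairs 0.431), which was -0.12 without MTM13-1 and B-3.

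**Figure D4:**
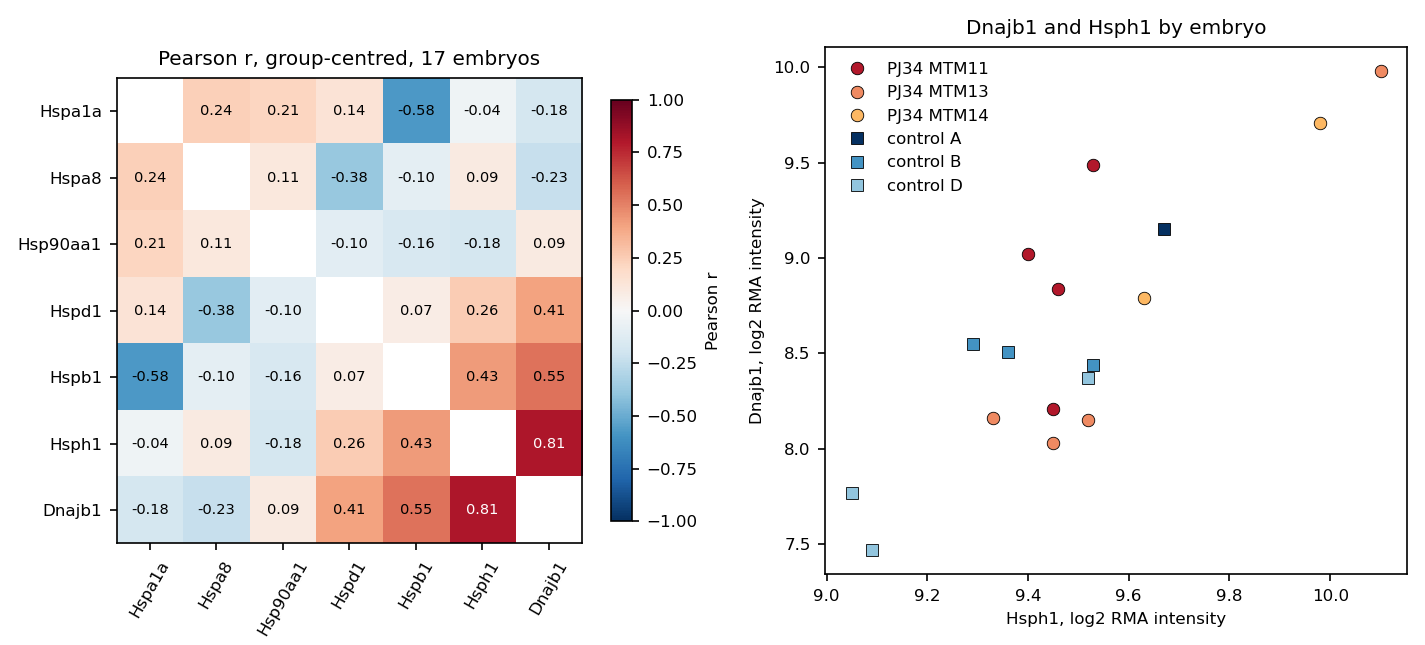
Left, Pearson r between 7 heat shock genes on group-centred log2 RMA intensity over 17 embryos (colour scale from -1 to 1). Right, Dnajb1 against Hsph1 (both axes log2 RMA intensity) in each embryo, PJ34 as circles and control as squares; MTM13-1 and MTM14-1 are at the upper right and D-2 and D-3 at the lower left, with r = 0.81.

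Promoter stretches with heat shock units are shown for genes of these pairs and for Hspd1, which varied between single embryos. The windows are RefSeq's (GRCm38.p6), 5′ to 3′ on the gene's strand, with GAANNTTC and TTCNNGAA pairs in capitals and 10 flanking bases where the window allows. They cover chr5:135887792-135887839 for Hspb1 (plus strand), chr1:55088049-55088086 for Hspd1 (minus strand, in the window chr1:55087883-55088182) and chr5:149636287-149636379 for Hsph1 (minus strand).
Hspb1: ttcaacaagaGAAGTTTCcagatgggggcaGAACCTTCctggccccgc
Hspd1: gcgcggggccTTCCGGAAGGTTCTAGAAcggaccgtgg
Hsph1: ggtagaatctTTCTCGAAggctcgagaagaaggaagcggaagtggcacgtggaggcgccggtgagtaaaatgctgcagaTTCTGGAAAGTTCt
Hspb1 held GAANNTTC 2 times, separated by unmatched bases. Hspd1 held 4 alternating units in a row and Hsph1 held 3. Runs of at least 3 units are spelled GAANNTTCNNGAA or, on the other strand, TTCNNGAANNTTC, forms that contain the pairs. Such triples were in 0.603% of all 32851 windows, runs of 4 or more in 0.0244%, and either pair was in 15.1%, with TTCNNGAA in 8.52%. Of the 6 members with a window, 5 held a pair and 2 held a triple in at least 1 of their windows. Counted by window, as the shares above are, 6 of 9 held a pair, and the windows of Hsph1 overlap. Shares by gene were not computed. Dnajb1, whose level followed that of Hsph1 most closely, had 2 windows on chromosome 8 with no match, and the other window of Hspd1, chr1:55088194-55088493, had none either, which says only that these letters are not in those windows. Hspa8, Hsp90aa1, Hsp90ab1 and Hsf1 are named only.

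Rows most like 3 members were ranked by r on group-centred values over 17 embryos, among 4156 to 4159 rows with a mean level of at least 8, as a description with no test. For Hspa1a these were Ywhae (r = 0.79), Pate11 (0.72), Tnfrsf12a (0.69), Pard3 (0.68) and Kdm7a (0.68). For Hspa8 they were Tfrc (0.78), AY036118 (0.77), Cse1l (0.77), Rps6 (0.77) and Qser1 (0.75). For Hsp90aa1 they were Eif4e (0.79), Cnot1 (0.79), Parp2 (0.77), Gm11517 (0.73) and Trim24 (0.73). No listed chaperone was among these 15 rows. The lists held 104 rows at any level besides the 13 heat shock rows, against 4156 to 4159 ranked rows, so this absence says little.

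Other chaperones gave no called difference between the groups. Of 99 further genes in 9 lists, 98 had a row, 104 rows in all, and 0 passed the adjustment, with a lowest adjusted p of 0.814. At an unadjusted p below 0.05, 4 rows were higher and 5 lower in PJ34 embryos (8.65% of these rows, against 5.89% of all rows), the median difference was -0.02 and 55.8% of differences were negative. Among J proteins, 32 rows, 0 were higher and 3 were lower at that level, where 1.96% of all rows were higher and 3.93% lower. The endoplasmic reticulum J protein Dnajb12 averaged 7.28 ± 0.35 in PJ34 and 7.80 ± 0.22 in control embryos (difference -0.52, adjusted p = 0.814). Its relative Dnajb14 averaged 10.31 ± 0.24 in PJ34 and 10.69 ± 0.22 in control embryos (difference -0.38, adjusted p = 0.814). The remaining one, Dnajb2, named after its value was seen, averaged 5.27 ± 0.13 in PJ34 and 5.43 ± 0.13 in control embryos (adjusted p = 0.843).

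In the cytosolic chaperonin TRiC and prefoldin list 13 of 15 rows had a negative difference, with a median of -0.08, where 56.35% of all rows were negative, and 1 was lower at an unadjusted p below 0.05, where 3.93% of all rows were. This was the TRiC subunit Tcp1, at 10.03 ± 0.23 in PJ34 and 10.32 ± 0.32 in control embryos (adjusted p = 0.843), while the prefoldin subunit Pfdn6 stood at 10.37 ± 0.61 in PJ34 and 10.76 ± 0.43 in control embryos (adjusted p = 0.895). Of the other Hsp70 and Hsp110 genes, 11 rows, 2 were higher and 1 lower at that level, where 1.96% of all rows were higher and 3.93% lower. The endoplasmic reticulum member Hyou1 averaged 7.10 ± 0.31 in PJ34 and 6.81 ± 0.11 in control embryos, and Hspa12b averaged 5.82 ± 0.10 in PJ34 and 5.69 ± 0.07 in control embryos (adjusted p = 0.843 each). The lower one, named after its value was seen, was Hspa1l, the testis relative of Hspa1a, at 5.16 ± 0.31 in PJ34 and 5.89 ± 1.05 in control embryos (difference -0.73, adjusted p = 0.843).

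Of the 10 rows of exchange factors and Bag proteins, 7 had a negative difference. At an unadjusted p below 0.05, 1 was higher and 0 lower, where 1.96% of all rows were higher and 3.93% lower. Bag5, an Hsp70 exchange factor, averaged 10.46 ± 0.49 in PJ34 and 9.98 ± 0.34 in control embryos (adjusted p = 0.843), and mitochondrial Grpel2 averaged 6.79 ± 0.17 in PJ34 and 6.93 ± 0.15 in control embryos (adjusted p = 0.872). Of 19 cochaperone rows, 1 was higher and 0 lower. This was St13, which binds Hsp70, at 11.19 ± 0.34 in PJ34 and 10.83 ± 0.26 in control embryos (adjusted p = 0.843). The row of the Hsp90 cochaperone Ptges3 with the smallest p averaged 11.67 ± 0.08 in PJ34 and 11.79 ± 0.15 in control embryos (adjusted p = 0.863).

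None of the 5 rows of heat shock transcription factors other than Hsf1 reached an unadjusted p of 0.05. Hsf5 averaged 6.08 ± 0.11 in PJ34 and 5.96 ± 0.20 in control embryos (adjusted p = 0.889), and Hsf2 averaged 4.57 ± 0.19 in PJ34 and 4.60 ± 0.18 in control embryos (adjusted p = 0.966). Neither did the other Hsp90 genes, mitochondrial Trap1 at 6.77 ± 0.45 in PJ34 and 7.0 ± 0.49 in control embryos and Hsp90b1 of the endoplasmic reticulum at 11.73 ± 0.26 in PJ34 and 11.73 ± 0.18 in control embryos. Nor did the 8 rows of other small heat shock proteins, with Hspb9 at 6.79 ± 0.12 in PJ34 and 6.87 ± 0.15 in control embryos and Hspb7 at 5.93 ± 0.19 in PJ34 and 6.04 ± 0.22 in control embryos.

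Single PJ34 embryos stood apart for 2 of these further genes, 0.192% of their row tests, against 0.581% of all row tests. Hspa13, an Hsp70 relative of microsomes, was at 6.48 in MTM11-1, against 4.64 ± 0.05 (n = 7) in control embryos (limma, adjusted p = 0.000158). This control level is close to 4.46, below which the lowest 10% of all row means lie, and signal over background was not analysed, so no fold is given. Hspb6, a small heat shock protein, was at 8.25 in MTM14-1, against 7.09 ± 0.15 in control embryos (difference 1.15, adjusted p = 0.0358). Each rests on 1 embryo.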

How the data were processed

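RNA of 17 single 2-cell embryos was amplified and hybridised to Affymetrix Mouse Gene ST arrays. The authors deposited log2 intensities made with RMA in Partek, quantile-normalized across arrays; versions and the probe build are not given in the labels or methods used here. Quantile normalization sets all arrays to 1 distribution, so a shift shared by most genes is not visible. The values were used as deposited. Of 28815 rows, 21780 had 1 gene symbol, 1605 several and 5430 none in the platform annotation. Samples were grouped by their labels, and 0 columns were left unmapped.

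Differences were tested with limma 3.58.1 in R 4.3.3 (two-sided, Benjamini-Hochberg over all rows with 1 symbol, threshold 0.1), rows with several symbols in a fit over all rows. Lone embryos were assumed to vary like controls. Correlations and 100000 permutations were computed with Python 3.11.15 and numpy 2.4.6, and the scripts were tested on simulated data. Precision is limited by the number of embryos (median standard error 0.09 log2). Named genes were every row of the 10 members, from each other chaperone list the 2 genes with the smallest p (1 for a list of 1) and any past the threshold, and, for 3 members, the 5 most alike rows. Members and lists were chosen with earlier results of these data known. Alternatives were a sire block, sire means, array centring, a filter on dim rows, all rows, a variance trend, plain analysis of variance, and leaving out sires and embryos.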

Additional observations from a re-analysis of the deposited data

Results flagged for a closer look

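A total of 3 values lay far from the other embryos of their group, by a gap relative to the group's range above the critical value of Dixon's test, among 32 groups of embryos tested (16 rows, both groups). Chance alone flags about 5% of groups. In the row shared by Hspa1a and Hspa1b, PJ34 embryo MTM13-1 stood at 9.03 against 7.86 for the next highest, a gap of 0.599 of the range (critical value 0.466 for 10 embryos). In row 1 of Hspd1, PJ34 embryo MTM11-3 stood at 9.91 against 10.87 for the next lowest, a gap of 0.595. In row 2 of Hspd1, control embryo B-3 stood at 9.38 against 10.36 for the next lowest, a gap of 0.614 (critical value 0.568 for 7 embryos). Each value rests on 1 embryo and 1 array.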

How the results depend on the processing

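No heat shock row passed the threshold in the group comparison under any alternative run. Over all rows tested, the count of calls was 0, and it was 2 with the sire as a random block (sire correlation -0.0377), 2 with rows of mean level 6 or more, 2 without sire A, 1 without sire MTM14, and 0 to 2 when embryos were left out in turn (2 without A-2). In the 13 rows with 1 symbol, calls in single PJ34 embryos numbered 0, and 1 with the spread from all embryos within groups. The share of all row tests called with that spread was not computed. These counts leave out the shared Hspa1a;Hspa1b row, which was called in MTM13-1 with either spread. Pairs with an adjusted p below 0.1 numbered 3, 0 on sire-centred values, 2 without the farthest 2 embryos, and 1 to 3 when embryos were left out in turn, an alternative chosen after seeing the data, as were the left-out values of the shared rows and of the Hspb1 spread and the within-group spread for the shared rows. The cause was not tested. Of 441 differences under alternatives, 405 kept their sign and 36, in 7 rows, reversed. Some of the 441 could not reverse. The dim-row filter, all rows, the variance trend and plain analysis of variance change only the spread or the adjustment and repeat the reported difference. Leaving out sire A is the same fit as leaving out A-2, its only embryo. The left-out fits share most embryos, so the tally does not count independent checks. Hspa1a became 0.0055 on sire means, 0.051 without sire B, 0.035 without MTM11 and 0.021 without MTM14, and ran from -0.12 to 0.049 over left-out embryos. Hspb1 row 1 became -0.33 on sire means, -0.28 without B, -0.049 without D and -0.18 without MTM11, and ran from -0.11 to 0.30; row 2 became -0.33 on sire means, -0.34 without B and -0.20 without MTM11, and ran from -0.13 to 0.27. Without sire B, Hsp90aa1 row 2 became 0.029, Hsp90aa1 row 3 0.031 and Hspd1 row 1 -0.050; Hsp90aa1 row 3 became 0.015 without MTM14 and ran from -0.063 to 0.0073 over left-out embryos. The shared Hspa1a;Hspa1b row ran from -0.023 (without MTM13-1) to 0.20. The other 9 rows kept their signs under all alternatives run. They were those of Hspa8, alone and shared with Snord14c and Snord14d, Hsph1 and Dnajb1, and also Hsp90aa1 row 1 and Hspd1 row 2. A constant sign was thus not particular to rows with a small p. Without sire D Dnajb1 was 0.18 and Hsph1 0.12, and without sire B Hspa8 row 3 was -0.025 and Hsp90aa1 row 1 -0.0028. No paired analysis was possible because embryo numbers only count embryos within a sire. Signal over background was not analysed, and the 10 and 7 embryos limit the precision.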
